A study of Sus scrofa with 30 samples.

Results

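The DLK1-DIO3 locus is an imprinted stretch of the genome that carries a very large group of microRNA (miRNA) genes, and its miRNAs were followed here in the plasma of Göttingen minipigs (GMPs) before and after a lethal total body irradiation (TBI). Members were taken by name. An ssc-miRNA, the pig form of a miRNA in miRBase, was included when the number after ssc-miR- was one of 45 numbers that belong to this locus in mammals. Of the 411 ssc-miRNAs in the table of counts, 20 met the rule, from 17 hairpins and 15 of the 45 numbers. The rule used names only and no measured value.

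The samples were plasma small RNA of 3 male GMPs, about 4 months old, each bled at 10 time points. C7 and C1 were drawn 7 days and 1 day before TBI and form the pre-TBI baseline. The animals then received 2.2 Gy of cobalt gamma rays to the whole body, and were followed by 8 further draws, from 6 h (0d) through 1d, 3d and 7d and on to 20d. Per the study, the animals were vehicle controls of a drug trial that received dextrose under the skin after TBI and oral antibiotics when neutrophils were low, they were anesthetized for irradiation and blood draws, and none survived. The phases of the study are used here. Early holds the draws of the first week, Mid those at 10d and 14d, Late that at 17d and LR that at 20d, and because they were read off a principal component plot of these very libraries, they cannot count as independent of the levels compared. Every animal was irradiated and no sham group was analysed here, so time, repeated bleeding, treatment and radiation cannot be told apart.

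In mammals the miRNAs of this locus are expressed from the maternally inherited chromosome, together with the long noncoding RNA MEG3, while the protein genes DLK1, RTL1 and DIO3 are expressed from the paternal one. The miRNAs lie in a few blocks. A first block lies between MEG3 and RTL1, a second is transcribed antisense to RTL1 and is fully complementary to its mRNA, miR-370 lies just after it, and a long run of related hairpins from miR-379 to miR-656 follows. They are known for expression in brain, placenta, embryonic tissue and muscle, and are lower in most adult tissues. In the RefSeq annotation of Sscrofa11.1, used for names and neighbours only, 7 of the 17 hairpins had a gene. On a single chromosome the order was DLK1, MEG3, MIR493 and RTL1, with MIR127, MIR432 and MIR136 inside the span of RTL1, whereas MIR376A, MIR376C and MIR381 sat on unplaced sequence. Human positions therefore placed the other members. By position, 13 members belong to the miR-379 to miR-656 cluster (miR-411, miR-299, miR-323, miR-758, miR-494, miR-376a-5p, miR-376a-3p, miR-376b, miR-376c, miR-381, miR-487b, miR-382 and miR-369), 4 to the RTL1 antisense block (miR-127, miR-136, miR-432-5p and miR-432-3p), 2 to the block before RTL1 (miR-493-5p and miR-493-3p), and miR-370 stands alone.

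Of the 30 libraries, 24 could be used. The 6 libraries of minipig 3 from 3d to 20d held 0 to 17 counts each, with 0 counts of any member, so Mid, Late and LR rest on minipigs 1 and 2. This left 6 pre-TBI libraries and, in the later phases, 10 for Early, 4 for Mid, 2 for Late and 2 for LR. Totals were 24341 to 423325 counts pre-TBI, 172339 to 524084 at Early, 35762 to 103083 at Mid, 29159 and 63441 at Late, and 401408 and 550316 at LR, so depth moved with phase. The most abundant ssc-miRNA, miR-4332, took between 0.83% and 20.2% of the counts of a library. The counts of a library are shares of that library, and plasma draws on many tissues, so fewer cells of a type and less RNA per cell cannot be told apart. Levels are given as CPM, the count relative to the library total after scaling by the trimmed mean of M values (TMM).

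The locus was a small and fairly constant part of the plasma miRNA. The 20 members together took 2.02% ± 0.372 of the counts pre-TBI (SD, n = 6), with libraries from 1.34% to 2.42%. Their share was 1.96% ± 0.349 in the Early libraries (n = 10), 2.27% ± 0.367 in the Mid libraries (n = 4), 2.42% ± 0.0524 in those of Late (n = 2) and 2.46% ± 1.19 in those of LR (n = 2). Every phase overlapped the pre-TBI range, with the Late libraries just above and just below its upper end (2.46% and 2.38%). At LR the animals differed, with 1.62% in minipig 1 (95% exact binomial interval 1.58 to 1.66) and 3.3% in minipig 2 (3.25 to 3.35), intervals that cover counting error only.

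The makeup of that share varied far more than its size. Pre-TBI, the most abundant members were miR-432-3p with a mean of 4198 CPM, which ranked 37 among the 411 ssc-miRNAs, and miR-370 with 3736 CPM at rank 46. miR-127, which is antisense to RTL1, followed with 2084 CPM. Then came miR-494 with 1775 CPM, miR-299 with 970.3 CPM, miR-382 with 849 CPM, miR-323 with 783 CPM and miR-376a-5p with 767 CPM. The least abundant member was miR-369 with 135 CPM, at rank 371. The order of the neighbours was loose, because the pre-TBI SD on the log2 scale was 1.36 for miR-494, 1.42 for miR-299 and 1.65 for miR-376a-5p, against 0.34 for miR-432-3p and 0.30 for miR-370. miR-370 and miR-432-3p together made up 22.2% to 51.8% of member counts pre-TBI and 50.9% to 63.9% at Early. At Late they made up 7.11% in minipig 1 (interval 5.34 to 9.25) and 32.5% in minipig 2 (30.1 to 34.9), and at LR 50.3% (49.1 to 51.5) and 66.1% (65.4 to 66.7).

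**Figure D1:**
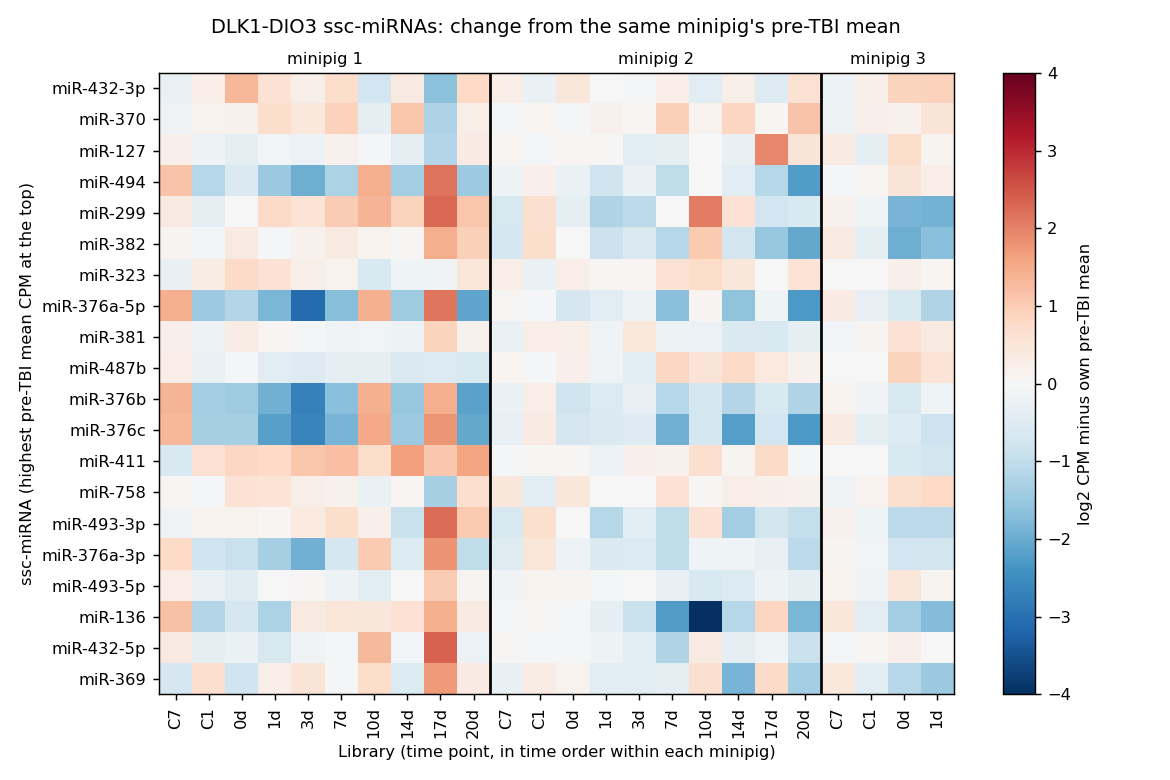
Each column is a library in time order within minipigs 1, 2 and 3 and each row a DLK1-DIO3 ssc-miRNA; colour gives log2 CPM minus the mean of the same animal's C7 and C1 libraries, from -4 (blue) to 4 (red), with the single value beyond that range, miR-136 at 10d of minipig 2, drawn at the end of the scale. The miR-376 rows and miR-494 are red in the C7, 10d and 17d libraries of minipig 1, while miR-323 and miR-487b stay pale in all 24 libraries.

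The members fell into steady and unsteady ones. The steadiest were miR-487b and miR-323, both of the large cluster, which spanned 2.61-fold and 2.65-fold between the lowest and highest of 24 libraries. miR-381 spanned 3.12-fold, miR-493-5p 3.32-fold and miR-758 4.22-fold. At the other end, miR-376a-5p spanned 93.6-fold, miR-494 54.8-fold, miR-376c 50.9-fold and miR-376b 33.7-fold. The miR-376 hairpins are close relatives of each other and are known for adenosine-to-inosine editing in brain. In minipig 1, miR-376a-5p stood at 3145 CPM at C7, 409.0 CPM at C1, 3066 CPM at 10d, 5082 CPM at 17d and 257 CPM at 20d. In minipig 2 it was 401 CPM at C7 and 374 CPM at C1, and later ranged from 420 CPM at 10d to 72.1 CPM at 20d. In minipig 3 it was 168 and 106 CPM pre-TBI, 85.2 CPM at 0d and 54.3 CPM at 1d.

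The libraries with the most CPM of miR-376a-5p had few counts in all, although the 10d library of minipig 2, with a total of 35762, was not among them. The count of miR-376a-5p itself was 64 at C7 of minipig 1 and 107 at 17d, with library totals of 24341 and 29159, and 86 at 20d of the same animal, with a total of 401408. Over the 24 libraries the lowest count was 14 and the highest was that at 10d of minipig 1, while the library totals spanned 22.6-fold. Across the 24 libraries, which come from 3 animals and include repeated draws, Pearson's r of log2 CPM with the log2 library total was -0.77 for miR-376a-5p, -0.73 for miR-376a-3p, -0.73 for miR-376b, -0.70 for miR-494, -0.69 for miR-376c and -0.66 for miR-432-5p. It was 0.69 for miR-432-3p, 0.46 for miR-370 and 0.43 for miR-758. Of the 20 members, 6 had an r below -0.5, beside 18.7% of all 411 ssc-miRNAs, and 1 had an r above 0.5, beside 17.8%. Depth also moved with phase, so the comparisons of these members are given with the library total as a covariate as well.

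Members did not vary as a block. Over the 24 libraries the 190 member pairs had a median r of 0.07 on the log2 CPM scale, ranging from -0.83 to 0.98, against a median of -0.01 over all 84255 pairs of ssc-miRNAs. Pairs within the same positional block had a median r of 0.08 (85 pairs) and pairs from different blocks 0.05 (105 pairs). The pattern most like miR-376a-5p was that of miR-376c (r = 0.98), followed by miR-376b (0.97) and miR-494 (0.93). These 4, grouped after their values were seen, had a median r of 0.95 among themselves, and miR-376a-3p joined them with r between 0.90 and 0.93. The counts of miR-376a-5p and miR-376c kept a constant ratio across the libraries within counting noise (chi-square per degree of freedom 0.91), and so did those of miR-376c and miR-376b (1.3). The ratio of miR-376a-5p to miR-376b varied beyond counting noise (2.43). Pairs from unrelated hairpins also kept a ratio within counting noise, miR-381 with miR-493-5p (1.2) and miR-432-5p with miR-376a-3p and with miR-493-5p (1.37 each). How reads that match more than a single miR-376 hairpin were counted is not given in the sources used here. miR-370 ran against most members, with a median r of -0.44 with the other 19. All of these points share the animals, the depth and the scaling of the libraries, and they are descriptions without a test.

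**Figure D2:**
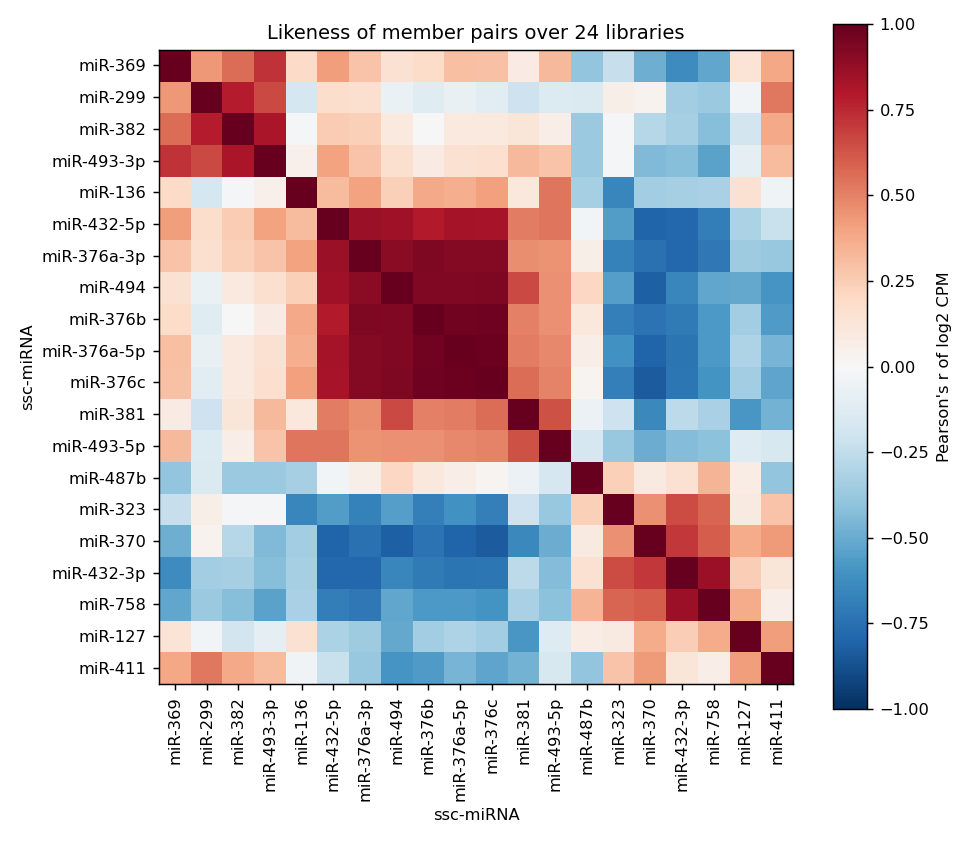
Each square gives Pearson's r of log2 CPM between 2 DLK1-DIO3 ssc-miRNAs over 24 libraries, from -1 (blue) to 1 (red), with rows and columns ordered by average-linkage clustering. A dark red block holds miR-432-5p, miR-376a-3p, miR-494, miR-376b, miR-376a-5p and miR-376c, and miR-323, miR-370, miR-432-3p and miR-758 are blue against it.

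In the Early phase, from 6 h to 7 days after TBI, the members lay on both sides of baseline. As many passed the unadjusted threshold upward as downward in the main fit, but more downward than upward with other scalings and tests. Their median log2 fold change against pre-TBI was -0.38, against 0.02 over all 411 ssc-miRNAs, with 8 above and 12 below 0. In edgeR's quasi-likelihood test with Benjamini-Hochberg adjustment over 411 ssc-miRNAs, 0 of 20 members passed an adjusted p of 0.05, beside 0% of all, and DESeq2's Wald test and edgeR's likelihood ratio test also gave 0, beside 8.03% and 7.06%. At the study's threshold of an unadjusted p under 0.05, 4 members (20%) passed, beside 18.7% of all ssc-miRNAs, so their share was near the background. Of these 4, 2 were higher (background 5.11%) and 2 lower (13.6%). DESeq2 and the likelihood ratio test passed 10 members each at that level, 2 higher and 8 lower, beside 26% and 23.4% of all ssc-miRNAs. Scaling by library totals only gave 0 higher and 8 lower, beside 17.5% of all. By block, the median was -0.74 for the 13 of the large cluster and -0.07 for the 4 antisense to RTL1. With the log2 library total as a covariate 3 members passed the unadjusted threshold, miR-299, miR-382 and miR-758, beside 15.1% of all.

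The lower members were miR-299 and miR-382 of the large cluster. miR-299 was 295 and 175 CPM pre-TBI in minipig 1, 479 and 1187 CPM in minipig 2 and 2057 and 1630 CPM in minipig 3, and its 10 Early libraries lay between 233 and 741 CPM. The high pre-TBI values came from minipig 3 and the C1 draw of minipig 2, and the groups overlapped. The log2 fold change was -1.16 (SE 0.44, unadjusted p = 0.0138, adjusted p = 0.158 in edgeR). Against its own baseline, miR-299 was 0.59 higher on the log2 scale in minipig 1 and -0.65 and -1.88 in minipigs 2 and 3. With the animal as a block in the fit the value was -0.70 (unadjusted p = 0.111 in edgeR), and without minipig 3 it was -0.38, so the call rested on that animal. Without the shallowest library, C7 of minipig 1, it was -1.49 and passed the adjusted threshold (adjusted p = 0.0455 in edgeR), and over all alternatives the adjusted p ran up to 0.764. miR-382 behaved alike, with pre-TBI libraries of 301 to 1618 CPM and Early libraries of 302 to 826 CPM around a median of 405 CPM. Its log2 fold change was -0.98 (SE 0.40, unadjusted p = 0.0210, adjusted p = 0.190), -0.82 with the block (unadjusted p = 0.0619 in edgeR) and -0.49 without minipig 3.

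The higher members were miR-432-3p and miR-758. miR-432-3p, antisense to RTL1, lay between 3096 and 5861 CPM pre-TBI with a median of 4267 CPM, and between 4378 and 9397 CPM at Early with a median of 5982 CPM. The 0d libraries of all 3 animals, at 9397, 6774 and 7030 CPM, the 1d library of minipig 3, at 7185 CPM, and both 7d libraries, at 6016 and 5947 CPM, lay above every pre-TBI library, and the other 4 Early libraries lay within the pre-TBI range. The log2 fold change was 0.56 (SE 0.25, unadjusted p = 0.0367, adjusted p = 0.230 in edgeR) and 0.58 with the animal as a block (unadjusted p = 0.0330). Its Early mean was above the animal's own pre-TBI mean in 3 of 3 animals, by 0.71, 0.17 and 0.90 on the log2 scale. miR-758, known as a regulator of the cholesterol transporter ABCA1, had a lowest value of 280 CPM, a median of 350 CPM and a highest value of 526.1 CPM pre-TBI. Its 10 Early libraries ran from 376.4 to 578 CPM, with 513 CPM as the median, and overlapped the baseline. The log2 fold change was 0.43 (SE 0.20, unadjusted p = 0.0396, adjusted p = 0.236). Neither call was kept when libraries were scaled by their totals only, where 0 members were higher and 8 lower, so the split of 2 higher and 2 lower depends on the scaling. Without the C7 library of minipig 1 neither passed (0.38 for miR-432-3p and 0.34 for miR-758), and after thinning all libraries to 24341 counts miR-758 was at 0.052.

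When the animal was a block, which the repeated draws from the same GMPs allow, 8 members passed the unadjusted threshold at Early, beside 22.4% of all ssc-miRNAs. miR-432-3p and miR-758 were higher, and miR-376a-3p, miR-376a-5p, miR-376c, miR-376b, miR-136 and miR-369 were lower. miR-376a-3p lay between 111 and 442 CPM pre-TBI and between 60.9 and 153 CPM at Early. It was below the mean of its own baseline in 10 of 10 Early libraries, on average by -1.21, -0.60 and -0.74 on the log2 scale in minipigs 1, 2 and 3, and the log2 fold change with the block was -0.87 (SE 0.32, unadjusted p = 0.0122, adjusted p = 0.153 in edgeR). miR-376a-5p, miR-376b and miR-376c were likewise below their own baseline in every Early library, with blocked values of -1.29, -1.16 and -1.32. The share of all ssc-miRNAs that lay below their own baseline in every Early library was not counted, so this pattern cannot be weighed against it. In minipig 1 that baseline includes C7, the shallowest library. Without it miR-376a-5p at Early went from -1.50 to -0.34 (unadjusted p = 0.599 in edgeR) with no block, and with the block miR-376a-5p was -0.90, miR-376b -0.79 and miR-376c -1.04, none of them past the unadjusted threshold. With the block and without that library 4 members passed, beside 16.3% of all, all of them lower, namely miR-376a-3p at -0.84, miR-369 at -0.90, miR-382 at -1.09 and miR-493-3p at -0.81. The study names miR-376a-3p and miR-432-5p in a panel it chose on these samples, and lists both as lower in every phase. Here, with no block, only part of their point estimates lay below 0. miR-432-5p was 1.67 (Late) and 0.60 (Mid), against -0.32 (LR) and -0.14 (Early). miR-376a-3p was 1.46 (Late) and 0.49 (Mid), against -0.80 (LR) and -0.74 (Early). Of these only the Late values passed the unadjusted threshold, and they rested on minipig 1. Coming from the same samples, these values are no independent evidence of that panel. When the library total was added to the block as a covariate, a choice made after seeing the data, 1 member passed, beside 10.7% of all, miR-136 at -1.36 (SE 0.49, unadjusted p = 0.0114, adjusted p = 0.347 in edgeR).

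**Figure D3:**
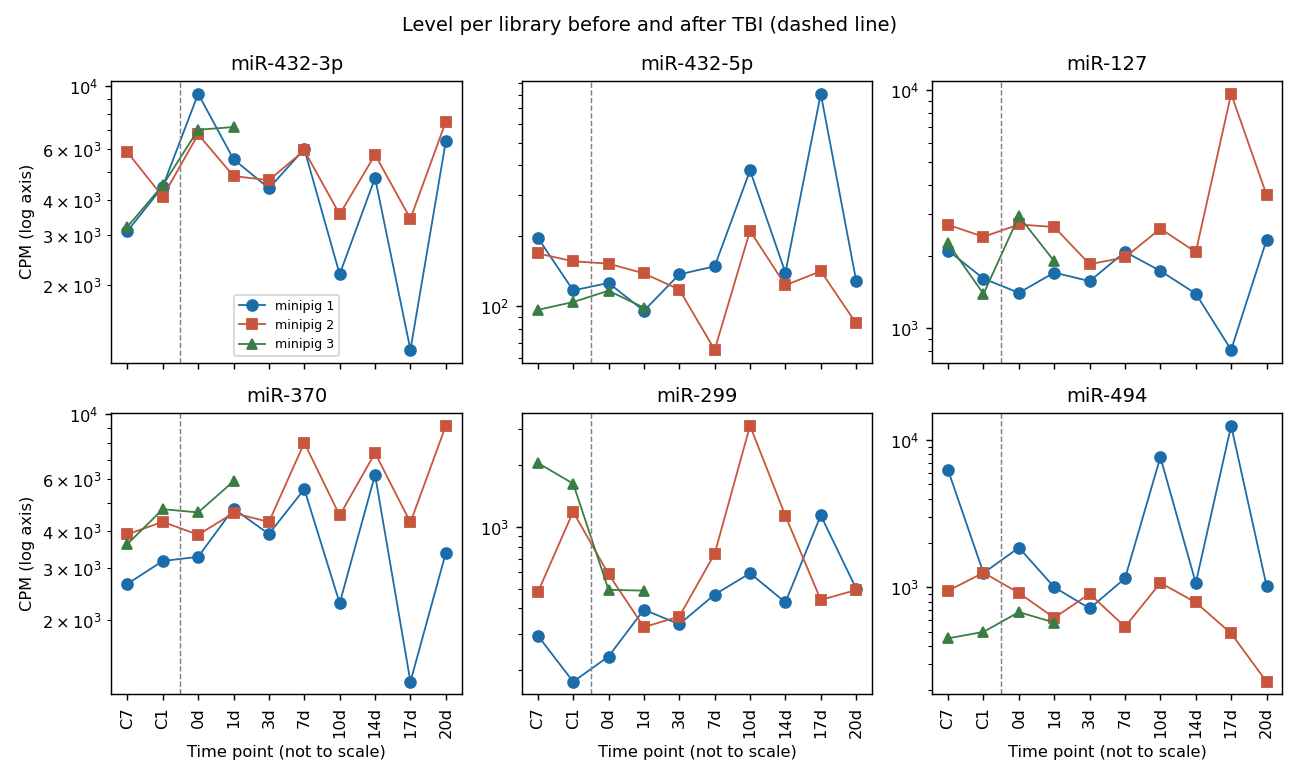
CPM per library on a log axis for 6 DLK1-DIO3 ssc-miRNAs, with time points in order along the horizontal axis, TBI as a dashed line and a line for each minipig; minipig 3 ends at 1d. miR-432-3p and miR-370 dip and miR-432-5p and miR-494 peak at 10d and 17d in minipig 1, and miR-127 reaches 9659 CPM at 17d of minipig 2.

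At Mid, 10 and 14 days after TBI, no member passed when both draws were pooled and set against baseline. The median log2 fold change was 0.19, against 0.05 over all ssc-miRNAs. In edgeR's quasi-likelihood test 0 of 20 members passed at the adjusted level, beside 0% of all, and 0 at an unadjusted p under 0.05, beside 5.35%, with 0 at either level in DESeq2's Wald test (unadjusted background 7.54%) and the likelihood ratio test (5.84%). The smallest p belonged to miR-432-5p, with 380.2 CPM at 10d and 139 CPM at 14d in minipig 1, and 210.0 CPM and 123 CPM in minipig 2, against 96.5 to 197 CPM pre-TBI. The 10d libraries were the high ones in both animals. The log2 fold change was 0.60 (SE 0.39). The other members with the smallest p were miR-493-3p at -0.65 (SE 0.47), miR-370 at 0.45 (SE 0.35), miR-369 at -0.53 (SE 0.47) and miR-376a-3p at 0.49 (SE 0.49). The 10d libraries held 59291 and 35762 counts and the 14d libraries 82536 and 103083. miR-136 had 0 counts in the 10d library of minipig 2, which allows up to 70 CPM, against pre-TBI values of 33.4 to 211 CPM.

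At Late, 17 days after TBI, more members were above than below baseline, and the members that were high differed between the animals. The median log2 fold change was 0.57, against 0.08 over all ssc-miRNAs, with 14 members above and 6 below 0. In edgeR's quasi-likelihood test with Benjamini-Hochberg adjustment 0 of 20 passed, beside 4.38% of all ssc-miRNAs, while DESeq2's Wald test and the likelihood ratio test each passed 1 member, miR-432-5p, beside 6.57% and 6.33% of all. At an unadjusted p under 0.05, 4 members were higher, beside 15.6% of all ssc-miRNAs in that direction, and 0 were lower, beside 7.06%. In either direction the background was 22.6%. The higher members were miR-432-5p, miR-127, miR-376a-3p and miR-494. Scaling by totals only shifted the median of all ssc-miRNAs from 0.08 to -0.21 and gave 2 higher and 1 lower.

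miR-432-5p was 807 CPM in minipig 1 and 141 CPM in minipig 2 at 17d, against pre-TBI values of 197 and 117 CPM, 168 and 156 CPM, and 96.5 and 104 CPM in minipigs 1, 2 and 3. Minipig 1 lay above every pre-TBI library and minipig 2 within their range. The log2 fold change was 1.67 (SE 0.49, unadjusted p = 0.00240, adjusted p = 0.0520 in edgeR), 1.39 with the animal as a block (adjusted p = 0.127) and 0.09 without minipig 1. Its counts at 17d were 17 and 9. Over the alternatives tried, the adjusted p ran from 0.0097 to 0.965.

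miR-127 showed the opposite pair. It was 807 CPM in minipig 1, below every pre-TBI library, and 9659 CPM in minipig 2, its highest value in the series, against pre-TBI libraries of 1388 to 2713 CPM. The log2 fold change was 1.34 (SE 0.47, unadjusted p = 0.00851, adjusted p = 0.105 in edgeR) and 1.10 with the block (unadjusted p = 0.0190). Without minipig 2 it turned to -1.49, and without minipig 1 it was 2.09 and passed the adjusted threshold (adjusted p = 0.00558 in edgeR, up to 0.576 over the alternatives). Relative to its own baseline miR-127 was -1.19 in minipig 1 and 1.91 in minipig 2. At 20d minipig 2 still had 3630 CPM and minipig 1 had 2339 CPM.

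miR-494 and miR-376a-3p were high in minipig 1 only. miR-494 was 12540 CPM in minipig 1 and 486.9 CPM in minipig 2, against a pre-TBI median of 1100 CPM and a highest pre-TBI value of 6240 CPM, a log2 fold change of 1.92 (SE 0.91, unadjusted p = 0.0466, adjusted p = 0.209 in edgeR). miR-376a-3p was 902 and 125.6 CPM, against 111 to 442 CPM, a log2 fold change of 1.46 (SE 0.62, unadjusted p = 0.0276, adjusted p = 0.176). Without minipig 1 these turned to -0.73 and -0.25, and neither passed with the animal as a block. With the block 2 members passed the unadjusted threshold, miR-127 and miR-432-5p, beside 19.2% of all, and with the block and the library total 0 did, beside 8.27%. With the library total alone 2 passed, miR-127 at 1.55 (SE 0.53) and miR-411 at 1.27 (SE 0.54), beside 10.9%. Without the C7 library of minipig 1 the value for miR-494 was 2.58 and it passed the adjusted threshold (adjusted p = 0.0452 in edgeR, up to 0.999 over the alternatives), as did miR-376a-5p at 2.91 (adjusted p = 0.0498). The 17d library of minipig 1 held 29159 counts.

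Members whose Late libraries both lay outside the pre-TBI range were miR-136 and miR-369, 2 of 20 beside 10.9% of all ssc-miRNAs. miR-136, of the RTL1 antisense block, was 238 CPM in minipig 1 and 376.9 CPM in minipig 2 against 33.4 to 211 CPM pre-TBI. miR-369, whose 3p arm is known to act on AU-rich mRNAs, was 285 and 251 CPM against 49.1 to 212 CPM. Counts were 5 and 24 for miR-136 and 6 and 16 for miR-369, and the log2 fold changes of 1.22 (SE 0.77) and 0.85 (SE 0.56) did not pass (unadjusted p = 0.127 and 0.140 in edgeR). miR-432-3p was lower by its point estimate, with 1187 CPM in minipig 1 and 3424 CPM in minipig 2 against 3096 to 5861 CPM, a log2 fold change of -0.85 (SE 0.41, unadjusted p = 0.0511, adjusted p = 0.219 in edgeR). Without minipig 2 it was -1.97 and passed (adjusted p = 0.0278), and over all alternatives the adjusted p ran up to 0.997.

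**Figure D4:**
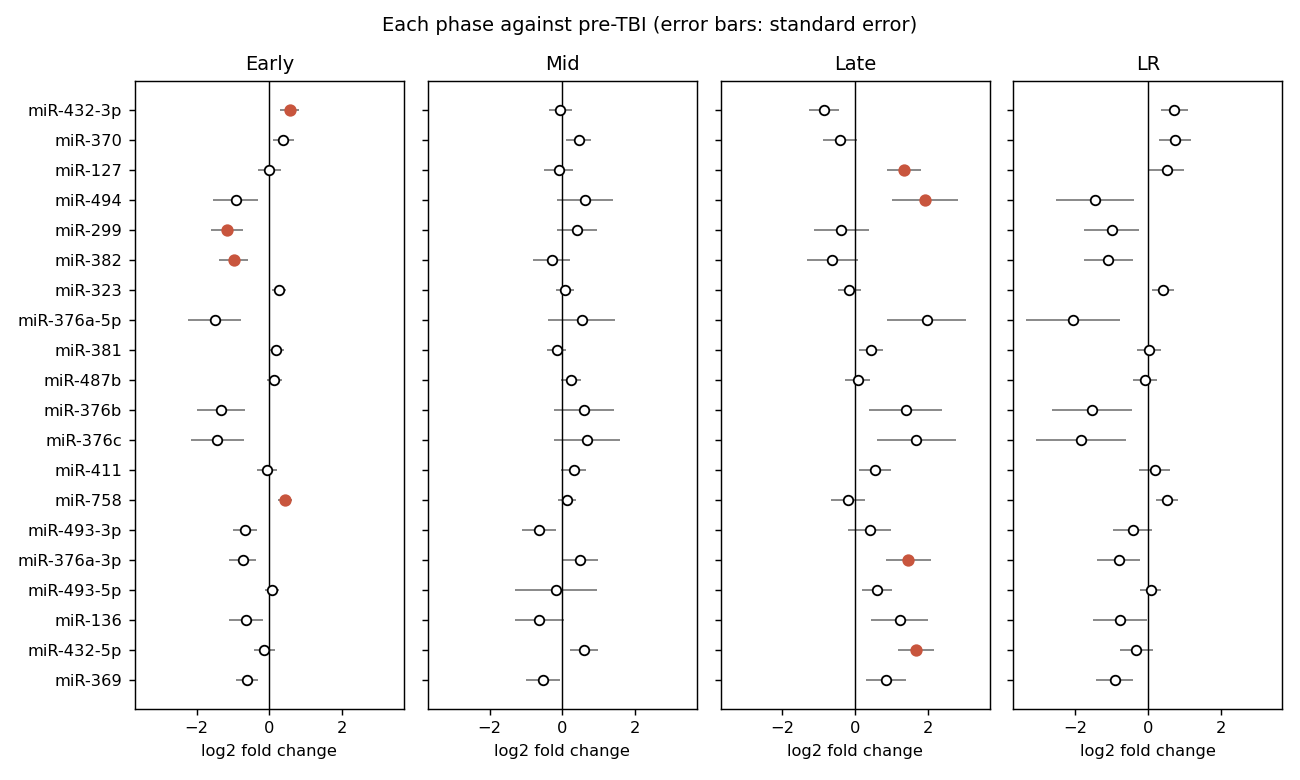
Log2 fold change against pre-TBI for the 20 DLK1-DIO3 ssc-miRNAs in each phase, with bars for the standard error; filled points have an unadjusted p under 0.05 in edgeR's quasi-likelihood test. There are 4 filled points at Early, none at Mid, 4 at Late and none at LR.

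At LR, 20 days after TBI, the members lay on both sides of baseline. The median log2 fold change was -0.37, against -0.01 over all ssc-miRNAs, with 8 above and 12 below 0. In edgeR's quasi-likelihood test 0 of 20 passed at the adjusted level, beside 0% of all, and 0 at an unadjusted p under 0.05, beside 5.6%. DESeq2's Wald test gave 0 adjusted and 4 unadjusted, the latter beside 14.1% of all ssc-miRNAs, and the likelihood ratio test 0 and 0, the latter beside 7.06%. The smallest p was that of miR-432-3p, with 6403 CPM in minipig 1 and 7506 CPM in minipig 2. Both lay above every pre-TBI library, and the log2 fold change was 0.73 (SE 0.37, unadjusted p = 0.0641, adjusted p = 0.593 in edgeR). miR-323 was the other member above the whole pre-TBI range, at 1017 and 1081 CPM against 590 to 902 CPM, 2 of 20 beside 9.25% of all ssc-miRNAs, and its log2 fold change was 0.41 (SE 0.29). miR-370, known to act on fatty acid oxidation through CPT1A, was 3380 CPM in minipig 1 and 9130 CPM in minipig 2, the highest value of the series, a log2 fold change of 0.74 (SE 0.43) that was -0.24 without minipig 2. miR-758 at 0.52 (SE 0.30), miR-369 at -0.92 (SE 0.51) and miR-382 at -1.09 (SE 0.68) followed.

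The miR-376 group was lower at LR when each animal was set against itself. With the animal as a block 5 members were lower at an unadjusted p under 0.05, beside 11.9% of all ssc-miRNAs in either direction. These were miR-376a-5p at -2.49 (SE 0.91), miR-376c at -2.36 (SE 0.90), miR-494 at -1.80 (SE 0.80), miR-376b at -1.71 (SE 0.81) and miR-376a-3p at -1.12 (SE 0.52), with adjusted p between 0.268 and 0.372 in edgeR. Without the C7 library of minipig 1 the first 2 and miR-376a-3p still passed (-2.02, -2.02 and -1.10) and miR-376b and miR-494 did not (-1.30 and -1.47). With miR-369 at -1.28, 4 members passed in that fit, beside 9.49% of all. miR-376a-5p was 257 CPM in minipig 1 and 72.1 CPM in minipig 2, below both of its own pre-TBI values in each animal, by -2.11 and -2.31 from their mean on the log2 scale. The LR libraries were deep, and with the library total added to the block none of these 5 passed, with values between -1.47 and -0.53. In that fit 1 member passed, beside 6.81% of all, which was miR-136 at -2.16 (SE 0.90, unadjusted p = 0.0263, adjusted p = 0.621 in edgeR). With the library total and no block 0 members passed, beside 4.62% of all. In that fit miR-376a-5p was at 0.15 (SE 0.87), miR-376b at 0.34 (SE 0.76) and miR-494 at 0.24 (SE 0.79). miR-376c was at -0.06 (SE 0.89) and miR-376a-3p at -0.28 (SE 0.52).

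More members differed between LR and Late than between any phase and pre-TBI. Between 17d and 20d, 10 of 20 differed at an unadjusted p under 0.05 in edgeR, beside 32.1% of all ssc-miRNAs. At LR, 8 were lower (background 20.4%) and 2 were higher (11.7%). At the adjusted level 0 passed in edgeR's quasi-likelihood test, beside 0.73% of all, against 6 in DESeq2's Wald test, beside 16.1% of all, and 2 in the likelihood ratio test, beside 4.87%. The higher members were miR-432-3p at 1.58 (SE 0.49, unadjusted p = 0.00379, adjusted p = 0.0865) and miR-370 at 1.16 (SE 0.56, unadjusted p = 0.0496). The lower members were miR-432-5p at -1.99 (SE 0.59), miR-376a-3p at -2.26 (SE 0.75), miR-376a-5p at -4.02 (SE 1.55), miR-376c at -3.53 (SE 1.47), miR-494 at -3.37 (SE 1.31), miR-376b at -2.93 (SE 1.32), miR-136 at -2.01 (SE 0.95) and miR-369 at -1.77 (SE 0.67). With the animal as a block miR-432-5p (-1.91) and miR-376a-5p (-3.66) passed the adjusted threshold, both with an adjusted p = 0.0497 in edgeR, beside 5.6% of all ssc-miRNAs. Without minipig 1 the values were -0.68 for miR-432-5p, -0.74 for miR-376a-3p and -2.19 for miR-376a-5p, and none of these passed the unadjusted threshold. The Late libraries held 29159 and 63441 counts and the LR libraries 401408 and 550316. With the library total as a covariate 0 of 20 members passed at an unadjusted p under 0.05, beside 7.06% of all, and the values became 0.31 (SE 1.41) for miR-376a-5p, 0.34 (SE 1.47) for miR-376c, 0.94 (SE 1.23) for miR-376b and 0.10 (SE 1.30) for miR-494. With 2 libraries in each phase and no overlap of their totals, depth and phase cannot be told apart here.

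Each time point was also compared with the pooled baseline in edgeR's quasi-likelihood test. There 12 of 160 member and time point pairs passed an unadjusted p under 0.05, beside 10.6% of the pairs of all ssc-miRNAs. At the adjusted level 0 passed, beside 0.882% of all pairs. DESeq2's Wald test passed 1, beside 2.77% of all pairs (22 unadjusted, beside 16.1%). Of all ssc-miRNAs, the adjusted level was passed by 1.22% (3d), 0.243% (14d), 4.87% (17d) or 0.73% (20d), with 0% for the other 4 draws. At 0d the member was miR-432-3p, higher by 0.88 (SE 0.30), 1 of 20 beside 8.52% of all ssc-miRNAs. At 1d it was miR-493-3p at -0.97 (SE 0.45), beside 12.2%. At 3d there was none, beside 8.52%. At 7d miR-370 was higher by 0.86 (SE 0.40), beside 8.27%, with 5563 CPM in minipig 1 and 7992 CPM in minipig 2 against 2653 to 4756 CPM pre-TBI. At 10d miR-432-5p was higher by 1.15 (SE 0.48), beside 7.3%. At 14d miR-370 was higher by 0.86 (SE 0.40), with 6220 and 7379 CPM, and miR-493-3p at -1.65 (SE 0.60) and miR-369 at -1.73 (SE 0.58) were lower, 3 of 20 beside 9%. At 17d 4 passed, beside 23.8%, namely miR-127, miR-376a-3p and miR-432-5p upward and miR-432-3p downward, and at 20d miR-432-3p was higher by 0.73 (SE 0.34), beside 7.06%. With the animal as a block 20 pairs passed the unadjusted threshold, beside 13.3% of the pairs of all ssc-miRNAs and time points.

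The 2 baseline draws were also compared with each other. Between C1 and C7, both before TBI, 0 of 20 members passed in edgeR's quasi-likelihood test at an adjusted or an unadjusted p under 0.05, beside 0% and 0.73% of all ssc-miRNAs, and DESeq2's Wald test gave 0 and 1, the latter beside 3.89%, and the likelihood ratio test 0 and 0. The widest baseline gap was that of the miR-376 group in minipig 1, where miR-376b went from 1916 to 284 CPM and miR-376c from 1818 to 284 CPM while the library total went from 24341 to 139786.

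Both arms were present for miR-432, miR-376a and miR-493, so their balance could be read within a library, where the scaling cancels. A miRNA hairpin is cut into a 5p and a 3p arm, of which usually a single one is kept. For miR-432 the 3p arm was always in excess. The 3p count per 5p count was 15.8 to 43 pre-TBI with a median of 34 (n = 6), 32 to 91.2 at Early with a median of 51.2 (n = 10) and 5.75 to 46.7 at Mid (n = 4). At Late it was 1.47 in minipig 1, from 25 and 17 counts, and 24.2 in minipig 2, from a 5p count of 9. At LR it was 49.8 and 88.8. The lowest ratios were those of minipig 1 at 17d, 10d (5.75) and C7 (15.8), the 3 libraries of that animal with the fewest counts, and the part of depth in this was not tested. The arms of miR-376a were closer, with a 5p count per 3p count of 0.962 to 7.11 pre-TBI, 0.786 to 3.81 at Early, 0.875 to 5.86 at Mid, 5.63 and 2.75 at Late in minipigs 1 and 2, and between 1 and 2.15 at LR. For miR-493 the 3p count per 5p count had a median of 2.17 pre-TBI, 1.46 in the Early, 1.37 in the Mid, 1.92 in the Late and 1.68 in the LR libraries, and these ranges overlapped throughout.

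**Figure D5:**
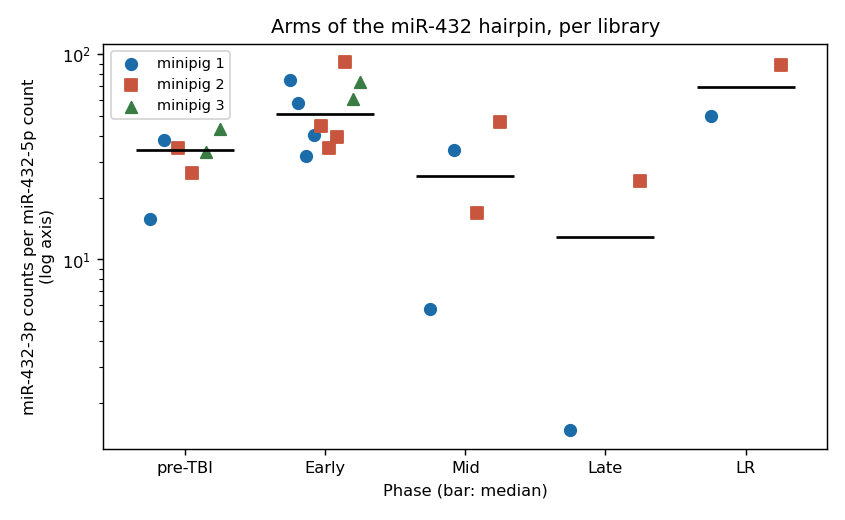
Ratio of miR-432-3p to miR-432-5p counts in each of 24 libraries on a log axis, by phase, with symbols for minipigs 1, 2 and 3 and a bar at the median. Ratios lie at 15.8 to 43 pre-TBI and 32 to 91.2 at Early, and the lowest, 1.47, is the 17d library of minipig 1.

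The summed CPM of ssc-miRNAs enriched in other cell types was followed beside the members. The 3 erythroid ssc-miRNAs summed to 8980 to 88300 CPM pre-TBI and to 8360 and 10200 CPM at Late, and the 9 platelet-enriched ones to 20100 to 29000 CPM pre-TBI and to 10400 and 12400 CPM at Late, below the whole pre-TBI range. The 16 brain-enriched ssc-miRNAs summed to 11500 to 73500 CPM pre-TBI, and then to 14000 to 29500 CPM in the Early, 15800 to 95200 CPM in the Mid, 29300 and 116000 CPM in the Late and 15600 and 27900 CPM in the LR libraries. At Late 5 of the 16 passed the adjusted threshold in edgeR, 4 higher and 1 lower, beside 4.38% of all. Of the other lists, 4 smooth muscle ssc-miRNAs went from 1490 to 2260 CPM pre-TBI to 2580 and 3130 CPM at Late, above the pre-TBI range, while 5 mesenchymal (1770 to 2750 CPM, then 1380 and 2450 CPM), 8 striated muscle (1520 to 4050 CPM, then 2580 and 4230 CPM), 4 lymphoid and myeloid (1790 to 3120 CPM, then 1760 and 2170 CPM) and 6 liver and gut ssc-miRNAs (5310 to 7620 CPM, then 3970 and 6030 CPM) overlapped there. In other phases, the liver and gut list was 12600 and 13900 CPM at LR, above the pre-TBI range, and the lymphoid and myeloid list 1470 to 1670 CPM at Mid, below it. The list of other imprinted loci was 9890 and 11500 CPM at LR, above its pre-TBI range of 6280 to 9800 CPM. A sum follows its most abundant members, and members of a list also moved apart. At an unadjusted p under 0.05 in edgeR, 1 platelet-enriched ssc-miRNA was higher and 1 lower at Late, beside 22.6% of all. At LR 2 liver and gut ones were higher and 1 lower, beside 5.6%. At LR miR-335 was at -0.91, miR-296-3p at 0.57 and miR-296-5p at 0.38. No list other than the brain-enriched one had a member past the adjusted threshold in any of the 4 phases. The part of any of these cells in the values of the DLK1-DIO3 members was not tested. Among miRNAs of other imprinted loci, miR-296-3p, miR-296-5p and miR-335 were in the table, and miR-335, from the imprinted MEST gene, was higher at Late by 2.31 (SE 0.73, unadjusted p = 0.00416, adjusted p = 0.0797 in edgeR), whereas miR-296-5p was at -0.72 (SE 0.43) and miR-296-3p at -0.12 (SE 0.38).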

How the data were processed

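Plasma small RNA of each animal and time point was made into a TruSeq small RNA library and sequenced on the NextSeq. Per the study's methods and the submitters' processing notes, the authors used bcl2fastq, cutadapt and Bowtie2 (2.2.3.0) against the pig build ssc5, mapped the reads again to miRBase and ran miRDeep2. The deposited values are raw read counts (whole numbers, not normalized) of 411 ssc-miRNAs. How a read matching several ssc-miRNAs was counted is not given in the sources used here. Reads carried no molecular identifiers, so intervals and limits cover counting error only.

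Members and lists were chosen with earlier results of these data known. Groups came from the sample labels. Libraries of at least 1000 counts were used, with depths of 24341 to 550316 counts. Counts were tested with edgeR 4.0.16 (R 4.3.3) by the quasi-likelihood test, with TMM, a CPM over 0.5 in at least 3 libraries (met by all 411), a single fit over the 5 phases with no animal term, and Benjamini-Hochberg adjustment over all ssc-miRNAs. The SE is that implied by the p-value. Time points were compared in separate fits with a term for each of them. Log2 CPM used a prior count of 2. The script was tested on simulated data. Alternatives were other scalings, filters and baselines, DESeq2 1.42.0, the likelihood ratio test, the animal as a block, thinning to 24341 counts, and leaving out each animal.

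The labels name the animal of each library, and this gives the pairing. Deviations from the phase means correlated on average at 0.169 within an animal (78 pairs of libraries; 0.248, 0.0467 and 0.564 in minipigs 1, 2 and 3) and at -0.102 between animals (130 pairs). At Late and LR, with a single library per animal, the deviations are mirror images, which ties the between-animal value to the within-animal value. The contrast therefore does not test the pairing, which rests on the labels. No pair of libraries within a phase was a duplicate (68 pairs, chi-square per degree of freedom of at least 21.8). P-values measure the spread between libraries that are repeated draws of 3 animals.

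Named are the 8 members with the highest pre-TBI CPM, those past the adjusted threshold, the 5 with the smallest p in each phase, miR-432-5p, miR-376a-3p and hairpins with both arms. Other members named with values, such as the rest of the miR-376 group, were chosen after their values were seen. Lists for blood cells, brain, muscle, mesenchyme, liver and gut and other imprinted loci were followed by summed CPM. Mature sequences and coordinates were not used here. Figures were drawn with matplotlib 3.10.9 in Python 3.11.15.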

Additional observations from a re-analysis of the deposited data

Results flagged for a closer look

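Over pre-TBI, Early and Mid, 60 member and phase groups of 4 to 10 libraries were checked for a library far from the others by Dixon's criterion. Chance alone gives such a library in about 1 of 20 groups. There were 4 such groups, all of them among the 20 groups of the Mid phase, with 4 libraries each. miR-376a-3p stood at 9.05 log2 CPM in the 10d library of minipig 1, with the nearest of the other 3 libraries at 7.48. miR-494 stood at 12.91 in the same library, with the nearest at 10.08. That library held 59291 counts. miR-136 stood at 2.94 in the 10d library of minipig 2, where its count was 0 of 35762, with the nearest at 6.58. miR-493-5p stood at 7.39 in the 14d library of minipig 1, with the nearest at 7.03, a small gap among libraries that otherwise lay close together.

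miR-432-3p moved in opposite directions at Late and LR in both animals with libraries there. Relative to each animal's own pre-TBI mean it was at -1.08 on average at Late and at 0.70 at LR, a difference of 1.78 on the log2 scale. Such a reversal, with every library of a phase on a single side and every library of the other phase opposite, occurred in 1 of 120 member and phase pairs. How often other ssc-miRNAs did so was not counted, so the case is a description only. The direct comparison of LR with Late, on the same libraries that picked the case, gave 1.58 (SE 0.49, unadjusted p = 0.00379, adjusted p = 0.0865 in edgeR's quasi-likelihood test). With the library total as a covariate it was 1.02 (SE 0.60), and with the animal as a block as well 1.01 (SE 0.71). Neither passed the unadjusted threshold. The comparison had 2 libraries a phase, with totals of 29159 and 63441 at Late and 401408 and 550316 at LR.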

How the results depend on the processing

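Alternatives were run on the counts of members past the threshold and on each named member. A percentage in parentheses is the share of all ssc-miRNAs past the same threshold in the same fit. Counts at the adjusted level were 0 in every comparison as reported. They became 1 at Early without the shallowest library, C7 of minipig 1 (6.57%). At Late they became 1 with DESeq2 (6.57%), 1 with the likelihood ratio test (6.33%) and 2 without that library (8.76%). In LR against Late they became 6 with DESeq2 (16.1%) and 2 with the likelihood ratio test (4.87%). Thinning gave 1 there (0.973%), and thinning with the block 1 (0.973%). Over the time points they became 1 with DESeq2 (2.77%), 1 with the likelihood ratio test (1.55%) and 3 without that library (1.46%). Leaving out minipig 1 or 2 left a single library at Late and at LR, which was assumed to vary like the other groups. Counts past a threshold from those fits are therefore left out for Late, LR, LR against Late and the time points.

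At an unadjusted p under 0.05, the Early count of 4 (18.7%) became 7 with RLE. It became 8 with library sizes only, without miR-4332, with the deepest library as TMM reference or with libraries of at least 1 count. The share of all ssc-miRNAs was 17.5% to 20.2% in the fits that gave 7 or 8. The Early count became 10 with DESeq2 (26%), the likelihood ratio test (23.4%) or only the groups compared (27.3%). The Mid count of 0 (5.35%) became 1 with the log2 total as a covariate (4.14%) and 3 without the shallowest library (9.25%). Without a minipig it was 0 to 2 (4.38% to 7.79%). The Late count of 4 (22.6%) became 1 with only the groups compared (9.49%) or C7 alone as baseline (9.25%), and 7 with C1 alone (26.5%). It became 2 with libraries of at least 1 count (20.2%), with the log2 total (10.9%) or without minipig 3 (17%). Without the shallowest library it was 8 (28.5%). The LR count of 0 (5.6%) became 4 with DESeq2 (14.1%), 3 after thinning (7.06%) and 2 without the shallowest library (6.81%). It became 1 with C7 alone (7.79%) or without minipig 3 (7.54%). In LR against Late the count of 10 became 6 after thinning, 0 with the log2 total and 2 to 9 without a minipig. C1 against C7 gave 1 with DESeq2 (3.89%) and 0 to 1 without a minipig (0.243% to 7.79%). The 12 time point pairs became 4 with library sizes only, 22 with DESeq2, 3 with C7 alone, 23 without the shallowest library and 5 to 14 without a minipig.

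With the animal as replicate block the unadjusted counts were 8 at Early (22.4%), 2 at Late (19.2%), 5 at LR (11.9%) and 20 over the time points (13.3%). LR against Late had 2 at the adjusted level (5.6%). Without the C7 library of minipig 1 the block gave 4 at LR (9.49%) and 20 over the time points (13.4%). It gave 6 at the adjusted level in LR against Late (10.2%). The block with thinning gave 2 at Late (13.4%), 6 at LR (12.4%) and 22 over the time points (10.7%). The block with the log2 total gave 1 at Early (10.7%), 0 at Late (8.27%), 1 at LR (6.81%) and 1 in LR against Late (3.89%). The block changed no other count by more than 1.5 times.

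Directions turned as follows. With the log2 total, miR-376a-5p at Early became 0.018 and miR-376a-3p at Mid -0.25 (-0.12 with the block), and in LR against Late miR-376a-5p became 0.31, miR-494 0.10, miR-376c 0.34 and miR-376b 0.94. Members outside the named results also turned with it. Among them, miR-376a-5p became -0.16 at Late and 0.15 at LR, and miR-376b -0.59 and 0.34. miR-376c became -0.40 at Late, and miR-494 0.28 at Early and 0.24 at LR. After thinning, miR-758 at LR became -0.29 (-0.26 with the block). Leaving out each minipig gave -0.10 to 1.04 for miR-376a-3p at Mid and -0.25 to 2.18 at Late, -0.73 to 2.40 for miR-494 at Late, -1.49 to 2.09 for miR-127 at Late and -0.24 to 1.16 for miR-370 at LR. The values for miR-376a-3p and miR-494 turned without minipig 1, and those for miR-127 and miR-370 without minipig 2. At Late, minipig 1 was at 1.81 from its own baseline for miR-376a-3p, 2.16 for miR-494 and -1.19 for miR-127. Minipig 2 was at -0.32, -1.15 and 1.91 for the same members. For miR-370 at LR both were above, by 0.22 in minipig 1 and 1.15 in minipig 2. The cause of these differences was not tested. Added after seeing the data were the log2 total, the fits without the shallowest library and the deepest reference. Counts of at most 24 in the Mid and Late libraries limit miR-432-5p, miR-376a-3p, miR-136 and miR-369.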
